A study of Gallus gallus with 9 samples.

Results

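The comparison described here sets any lens wear against no lens in the chick retina. The 6 arrays from chicks that wore a lens, 3 with a plus lens of 7 D and 3 with a minus lens of -7 D, were pooled and compared with the 3 arrays from untreated birds, which makes up all 9 arrays of the study. For the minus lens samples the source field mentions plus as well as minus, so they were grouped by their titles, and every value for the minus lens rests on that reading. Each array measured RNA from the amacrine cell layer, cut by laser capture from retinal sections 10 µm thick, with 1 or more probe sets for each gene. The test covered 12975 probe sets bright enough for it, at log2 4 or above on at least 3 of the 9 arrays. Of these, 221 (1.7%) had all 6 lens arrays on the same side of all 3 controls, and they are the members described below. That share was below the one chance would give, as set out with the counts, so membership alone is no sign of a response to lens wear. Chicks of the lens groups wore the lens over 1 eye for 24 h, from noon to noon, under a 12:12 h light-dark cycle. The controls were birds of the same age without a lens, so the groups differ in the bird as well as in the lens, and wearing a device and seeing through it cannot be told apart. Each condition had 3 chicks and 3 samples per the labels, which do not tie a sample to a chick, so the p-values speak to the scatter among samples, some of which may be technical.

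Amacrine cells are the interneurons of the inner retina. They release GABA or glycine together with many peptides and modulators, and they shape what bipolar cells pass on to ganglion cells. In chicks a plus lens focuses the image in front of the retina and slows the growth of the eye, whereas a minus lens focuses it behind the retina and speeds growth, and the retina reads the sign of that defocus locally. A change shared by both lenses does not depend on the sign of the defocus. Known candidates for the retinal response include the immediate early gene EGR1, the peptide gene GCG, retinoic acid and dopamine.

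The captured tissue carried amacrine RNA: 27 of the 35 amacrine markers on the array were measured, and the GABA-making enzyme gene GAD1 averaged log2 14.26 on the controls. Markers of neighbouring cells were measured as well: 12 of 18 bipolar, 15 of 26 Müller glia, 12 of 20 ganglion cell and 6 of 30 photoreceptor markers. Of 9 red blood cell markers 0 were measured. Measured means that at least 1 probe set of the gene passed the filter, and some genes stand on several lists. Of all chicken probe sets 34.4% passed, a share by probe set that is not a like measure for these counts by gene. How much RNA came from each cell type was not tested. The tyrosine hydroxylase gene TH, which defines the dopaminergic amacrine cells, lay below the filter. In tissue of this kind, fewer cells of a type and less RNA per cell cannot be told apart. One lens array, minus lens replicate 3, stood apart, with a mean correlation with the other arrays of 0.953 against 0.971 to 0.975 for the rest, and hybridisation controls at log2 13.17 against 11.53 to 12.19. Over 6 measures of array quality, lens and control arrays had exact permutation p-values of 0.298 to 0.988 (two-sided, 84 splits), and adjusted values of 0.914 to 0.988.

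Lens wear of either sign went with a lower signal of 1 uncharacterised gene, LOC425969, and this was the 1 probe set (0.00771% of those tested) past an adjusted p of 0.05 in limma's test of the mean of both lenses against the controls. Without adjustment 428 probe sets, 3.3% of those tested, had a p under 0.05, 171 of them higher and 257 lower. All 6 lens arrays lay above all 3 controls on 98 probe sets (0.755% of those tested) and below them on 123 (0.948%). If lens and control arrays were exchangeable, 1 of 84 splits, a fraction of 0.0119, would give such a separation in each direction. Both observed shares, given in percent, lay below that fraction. The 3.3% likewise lay below the fraction of 0.05 that chance gives for p. Neither kind of probe set was thus more numerous than chance would give. Of the 98 higher probe sets 82 named 1 gene each, and of the 123 lower ones 87 named 83 genes; the others carried no symbol or several. The separation itself selected these probe sets, so their differences are given as descriptions and support nothing. Most of them were small: the median size was log2 0.34 among the higher and 0.36 among the lower, against 0.11 over all probe sets tested, and 76 of the 98 and 90 of the 123 differed by less than 0.5. Only 5 in each direction reached log2 1, and 59 of the 69 probe sets that did so over the whole table had overlapping groups.

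LOC425969 is a protein-coding gene without an established function in the annotation used. Its log2 intensity was 6.24, 5.95 and 6.02 on the controls, 4.62, 4.15 and 4.61 under the plus lens, and 4.24, 3.84 and 4.23 under the minus lens. Every lens array lay below every control, with a gap of 1.34 between the nearest of them. The gene fell by 1.79 on the log2 scale (SE 0.15, 95% interval -2.14 to -1.44), or 3.46-fold, with an adjusted p of 0.0191 in limma. The difference was -1.61 for the plus lens (adjusted p 0.0705 in limma) and -1.97 for the minus lens (adjusted p 0.0285). Thus the minus lens passed 0.05 taken alone and the plus lens did not, and these values share the same 3 controls. Its lens arrays lay close to the filter's log2 4, where the deposited values are compressed. The adjusted p rose above 0.05 when control replicate 1, 2 or 3 was left out (0.155 to 0.208), without plus lens replicate 1 (0.0729), plus lens replicate 3 (0.0747) or minus lens replicate 1 (0.0746), and with no filter on dim probe sets (0.0646). A filter at log2 6 removed the probe set.

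GFRA1, the co-receptor that binds glial cell line-derived neurotrophic factor and presents it to the receptor tyrosine kinase RET, came next in order of p and just missed the threshold. It read log2 8.36, 8.52 and 8.38 on the controls, 10.63, 10.10 and 10.27 under the plus lens, and 10.38, 10.62 and 9.69 under the minus lens. The controls were tight and all 6 lens arrays stood at least 1.17 above them. The difference was 1.86 (SE 0.20, 95% interval 1.40 to 2.33, 3.64-fold, adjusted p 0.0652 in limma), and it was 1.92 for the plus lens and 1.81 for the minus lens. The array read this gene with 1 probe set, so no second reading of it exists. The adjusted p was 0.041 with the filter at log2 6, 0.0229 with 2 groups in the fit, 0.00976 without minus lens replicate 3 and 0.711 without control replicate 3. GFRA1 was the 1 of 5 measured genes of the GDNF family list without overlap. Over all genes 0.94% were higher on all 6 lens arrays and 0.799% lower. The other 4 had overlapping groups, with differences of 0.15 for the adaptor DOK5, -0.11 for the artemin co-receptor GFRA3, -0.17 for the adaptor GRB10 and -0.30 for the adhesion molecule NCAM1.

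**Figure D1:**
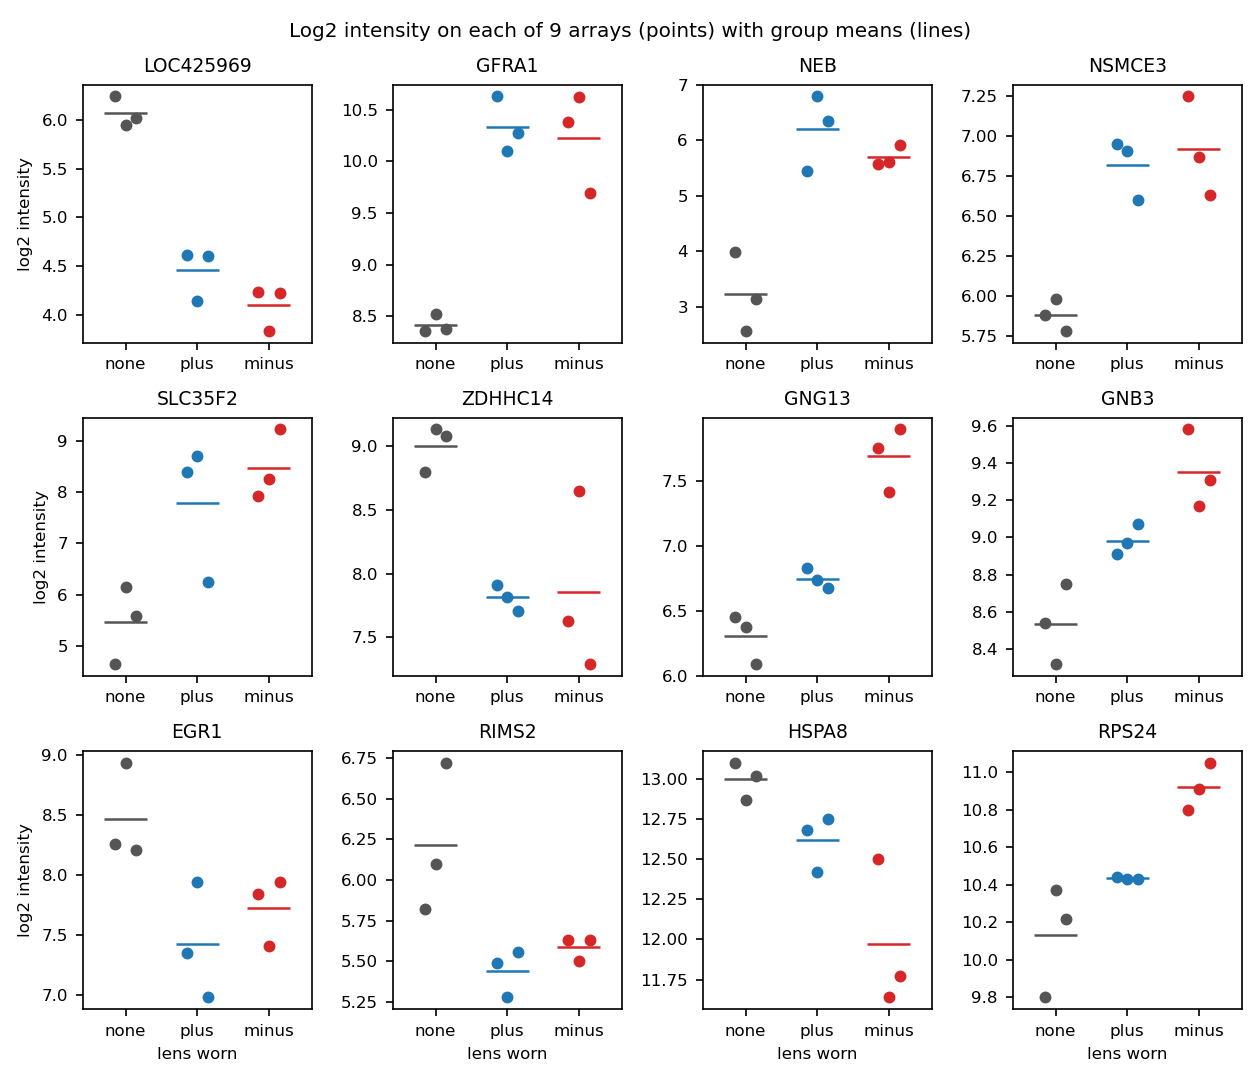
Log2 intensity (y axis) of 12 genes on the 3 untreated, 3 plus lens and 3 minus lens arrays (x axis), with points for arrays and lines for group means. Lens arrays of both signs together do not overlap with the untreated arrays in any panel, whereas plus and minus lens arrays overlap in some. LOC425969 drops from 5.95 or above to 4.62 or below, and GFRA1 stands at 9.69 or above against 8.52 or below. GNG13, GNB3 and RPS24 stand higher under the minus lens than under the plus lens.

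Of the 5 probe sets higher by at least log2 1, that of GFRA1 had bright and tight controls, and those of NEB, SLC35F2, DPF3 and RBP4 were dim or variable on the controls. NEB, which encodes the thin-filament protein nebulin of muscle, read 3.99, 2.57 and 3.15 on the controls against 5.45 to 6.79 on the lens arrays, a difference of 2.71 (SE 0.35, adjusted p 0.125 in limma). Its controls lay below the filter, so this probe set entered the test only through the lens arrays, where it was high. The other tested probe sets of NEB differed by -0.32, 0.15 and -0.27. SLC35F2, a membrane solute carrier, read 4.65, 6.16 and 5.58 on the controls, 8.39, 8.71 and 6.25 under the plus lens and 7.92, 8.26 and 9.22 under the minus lens. Its groups stood only 0.0887 apart because of plus lens replicate 3, and the difference of 2.66 had a standard error of 0.58. DPF3, a subunit of chromatin remodelling complexes, differed by 1.83 (SE 0.38) with a gap of 0.019, and a dimmer probe set of the same gene differed by -0.98. NSMCE3, a subunit of the complex that holds and repairs damaged chromosomes, was steadier. It read 5.88, 5.98 and 5.78 on the controls, 6.95, 6.91 and 6.60 under the plus lens and 7.25, 6.87 and 6.63 under the minus lens, a gap of 0.626 and a difference of 0.99 (SE 0.16, adjusted p 0.412 in limma). HDAC11, a histone deacetylase, differed by 0.41. NSMCE3 and HDAC11 were the members without overlap among 87 measured genes of chromatin and zinc finger transcription, whose median was -0.02. That is 2 of 87 higher on all 6 lens arrays, where 0.94% of all 7130 genes were.

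Subunits of heterotrimeric G proteins supplied 3 of the higher genes, and 0 genes of that list were lower on all 6 lens arrays, where 0.94% of all genes were higher and 0.799% lower. GNG13, a gamma subunit of ON bipolar cells and taste cells, read 6.45, 6.38 and 6.09 on the controls, 6.83, 6.74 and 6.68 under the plus lens and 7.76, 7.42 and 7.90 under the minus lens. The plus lens arrays thus stood just above the controls and the minus lens arrays well above both, with differences of 0.45 and 1.39 and a pooled value of 0.92 (SE 0.14, adjusted p 0.376 in limma). GNB3, the beta subunit of cones and ON bipolar cells, read 8.54, 8.32 and 8.75 on the controls and 8.91 to 9.58 on the lens arrays (0.63, SE 0.13), and its second probe set differed by 0.40 at a dimmer level. GNG2, a widely expressed gamma subunit, differed by 0.21 with groups 0.102 apart, and by 0.03 at its dimmer probe set. Over the 48 measured genes of G proteins, RGS proteins and cyclic nucleotide enzymes the median was -0.02, with 22 higher and 26 lower. Of 12 bipolar cell markers 8 were higher, and their mean stood between 0.29 and 0.31 above the control mean on the 3 minus lens arrays and between 0.03 and 0.07 on the 3 plus lens arrays, against -0.02 to 0.03 on the controls. The medians over the same markers had the other order, 0.04 for the minus lens and 0.08 for the plus lens, so a few members carried the means. The bipolar factors VSX1 and OTX2, picked from the 8 higher markers, had pooled differences of 0.53 and 0.49 with overlapping groups. VSX1 differed by 0.96 under the minus lens and 0.10 under the plus lens. The other 4 of the 12 markers were lower, and the median of the pooled differences was 0.06. Photoreceptor markers had 2 of 6 higher, GNB3 among them, and a median of -0.02, with array means of 0.07 to 0.32 on the lens arrays and -0.16 to 0.24 on the controls; the part of other cell types in these values was not tested. SOUL, a haem-binding protein known from chick retina and pineal gland, followed the same order of groups, at 5.44, 5.34 and 5.45 on the controls, 5.56 to 5.67 under the plus lens and 6.09 to 6.93 under the minus lens.

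EGR1, the immediate early transcription factor whose protein in chick amacrine cells is known to follow the sign of defocus, was lower under both lenses after 24 h. It read 8.26, 8.94 and 8.21 on the controls, 7.35, 7.94 and 6.98 under the plus lens and 7.84, 7.41 and 7.94 under the minus lens. The highest lens arrays came within 0.275 of the lowest control. The difference was -0.89 (SE 0.25, 95% interval -1.46 to -0.33) and did not pass (adjusted p 0.999 in limma), with -1.05 for the plus lens and -0.74 for the minus lens. A second EGR1 probe set, below the filter and not tested, read 3.91, 5.33 and 4.46 on the controls and 3.32 to 3.89 on the lens arrays. Its nearest control and lens arrays, at 3.91 and 3.89, almost touched at a level where values are compressed. Of 13 measured immediate early genes 11 were lower, with a median of -0.25, where 3799 of 7130 genes were lower with a median of -0.01. Beside EGR1 (1 of 13 without overlap, where 0.799% of all genes were lower on all 6 lens arrays and 0.94% higher), the phosphatase gene DUSP4 differed by -0.83 and the kinase gene SIK1 by -0.80, both with overlapping groups. The early genes CCN2 and BDNF differed by 0.19 and 0.12, and FOS lay below the filter at 3.49 to 3.54 on all 9 arrays. The list mean was -0.67 on minus lens replicate 3 and between -0.40 and -0.09 on the other 5 lens arrays, against -0.09 to 0.14 on the controls.

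Of 51 measured genes of synaptic vesicle release, 2 were lower on all 6 lens arrays at their brightest probe set, DNM1 and STX16. UNC13B was the 1 higher, where 0.799% of all genes were lower and 0.94% higher. RIMS2 and DMXL2 are described beside them and are not in these counts. RIMS2, an organiser of the presynaptic active zone, read 5.82, 6.10 and 6.72 on the controls, 5.49, 5.28 and 5.56 under the plus lens and 5.63, 5.50 and 5.63 under the minus lens. The lens arrays were tight and the controls spread, for a difference of -0.70 (SE 0.19). Its brightest probe set differed by -0.75 with overlapping groups, and both others by 0.00. DNM1, the dynamin of vesicle recovery, differed by -0.31 at a mean of log2 11.48, and STX16, a syntaxin of Golgi traffic, by -0.34. DMXL2, a vesicle-associated regulator of the proton pump, read 6.44, 6.56 and 6.62 on the controls and 5.23 to 6.05 on the lens arrays (-0.78, gap 0.39), and its other tested probe set differed by -0.02. One release gene went the other way, the priming factor UNC13B at 0.60 with a gap of 0.00591. Of the 51 genes of the list 37 were lower, with a median of -0.08.

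Of 17 measured glutamate receptor genes, 2 were lower on all 6 lens arrays at their brightest probe set, GRIN2A and GRM8, and 0 were higher, where 0.799% of all genes were lower and 0.94% higher. GRIN2A, an NMDA receptor subunit, read 8.15, 8.08 and 8.18 on the controls, 7.94, 7.81 and 7.56 under the plus lens and 7.63, 7.50 and 6.33 under the minus lens. Minus lens replicate 3 was far below the rest, and the difference was -0.67 (SE 0.27) with it and -0.47 without it. GRIA3, an AMPA receptor subunit, differed by -0.57 at the probe set without overlap, and its other probe sets by -0.68 and -0.29. GRM8, a presynaptic metabotropic receptor, read 5.67, 5.64 and 5.45 on the controls and 5.09 to 5.36 on the lens arrays (-0.36, SE 0.11). Of the 17 genes 11 were lower, with a median of -0.04. DRD5, a dopamine receptor, differed by -0.23 with controls of 9.45 to 9.50 and lens arrays of 8.99 to 9.35, and SCN3A, a sodium channel subunit, by -0.42.

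ZDHHC14, an enzyme that attaches palmitate to proteins, was lower on all 6 lens arrays at 2 probe sets. The first read 8.80, 9.13 and 9.08 on the controls, 7.91, 7.82 and 7.71 under the plus lens and 7.63, 8.65 and 7.29 under the minus lens. Minus lens replicate 2 lay closest to the controls, and the difference was -1.17 (SE 0.26). The second, brighter probe set read 10.21, 10.08 and 10.14 on the controls, 9.29, 9.43 and 9.12 under the plus lens and 9.09, 10.06 and 8.96 under the minus lens, and it too had minus lens replicate 2 nearest to the controls (-0.82, SE 0.22). Another probe set differed by -0.52 with overlapping groups. The names of the 2 probe sets without overlap differ only in their ending, so they may not be separate readings of the gene. Without minus lens replicate 2 both ZDHHC14 probe sets without overlap passed, at -1.37 (adjusted p 0.0464) and -0.99 (adjusted p 0.0484) in limma. That setting left out the array nearest to the controls, and neither probe set passed in the main fit or in any other setting. ACAP3, a regulator of membrane traffic, was lower on all 6 lens arrays at both of its tested probe sets, at -0.61 (7.98, 8.05 and 7.87 on the controls against 7.18 to 7.65) and -0.26. TMEM2, a membrane hyaluronidase, differed by -0.55. COBL, an actin nucleator, differed by -0.49, and by -0.06 and -0.32 at its brighter probe sets.

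HSPA8, the constitutive heat shock cognate protein that clears clathrin coats and folds new proteins, was among the brightest genes without overlap. It read 13.10, 12.87 and 13.02 on the controls, 12.68, 12.42 and 12.75 under the plus lens and 12.50, 11.64 and 11.77 under the minus lens. The difference was -0.70 (SE 0.18), with -0.38 for the plus lens and -1.02 for the minus lens, and it was -0.65 without minus lens replicate 3. Of 38 measured heat shock and chaperonin genes 25 were lower, with a median of -0.12; their mean was -0.59 on minus lens replicate 3, -0.31 on minus lens replicate 2 and between -0.07 and 0.14 on the other 4 lens arrays, against -0.09 to 0.06 on the controls.

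Genes of RNA processing and protein synthesis stood on both sides. RPS24, a protein of the small ribosomal subunit, read 9.80, 10.37 and 10.22 on the controls, 10.44, 10.43 and 10.43 under the plus lens and 10.80, 10.91 and 11.05 under the minus lens, so that the plus lens arrays cleared the highest control by 0.0641 only. It differed by 0.55 (SE 0.13), and a dimmer probe set of it by -0.23. RPS24 was the 1 ribosomal protein gene without overlap of 62 measured, of which 57 were higher, with a median of 0.22; its share of 1.61% without overlap was close to the 1.74% of all genes. Control replicate 2 had a list mean of 0.19, above those of all 3 plus lens arrays and of minus lens replicate 3 (0.12). RPL22L1, a paralogue of a large-subunit protein, was lower at its dimmest probe set (-0.82) and higher at both brighter ones (0.69 and 0.62), which had overlapping groups. SNRNP48, a protein of the minor spliceosome, differed by 0.44 with lens arrays of 8.94 to 9.14 against 8.41, 8.77 and 8.65, and by 0.16 at a dimmer probe set. NOB1, a nuclease of ribosome maturation, differed by 0.35, and by 0.07 at its dimmer probe set. MBNL2, a regulator of splicing, differed by 0.41 at its dimmest tested probe set and by 0.06, -0.14 and -0.02 at the others. The cap-binding NCBP3 was lower at its dimmest tested probe set (-0.72) and differed by 0.13, -0.15 and -0.01 at the others. Lower too was PRPF8 (-0.31), a core spliceosome protein whose other tested probe set differed by -0.32.

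Several of the lower probe sets were close to the dim end of the scale or stood alone among the readings of their gene. CUL3, a scaffold of ubiquitin ligases, read 4.83, 5.47 and 5.02 on the controls and 4.33 to 4.38 on all 6 lens arrays (-0.76), and its brighter probe set differed by -0.14. PRRC2C, a stress granule protein, differed by -0.77 at a mean of log2 4.93, and by -0.15 at its brightest probe set. DIDO1, a regulator of transcription, differed by -0.66 at a mean of 4.76 and by 0.28 at a mean of 9.15. Among the higher genes, STYK1, a kinase-like membrane protein, had controls of 3.31 to 3.59 and lens arrays of 3.81 to 4.62. It too passed the filter only through lens arrays. KIF20B, a mitotic kinesin, had a gap of 0.000544. RAB40B, a small GTPase, differed by 0.74, and by -0.12 at its other tested probe set. C26H6ORF125 differed by 0.51. MYLK, the kinase of myosin light chains, differed by 0.36, and by -0.20 and -0.03 at its dimmer probe sets.

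Of 15 measured retinoic acid genes 1 was higher on all 6 lens arrays, where 0.94% of all genes were. This was RBP4, the plasma carrier of retinol. It read 4.56, 4.32 and 5.05 on the controls, 5.48, 6.30 and 5.62 under the plus lens and 7.45, 5.48 and 5.48 under the minus lens. The gap was 0.427 and the difference 1.33 (SE 0.44), with minus lens replicate 1 highest. Of 15 measured genes of the pathway 10 were higher, with a median of 0.15. CYP26A1, the enzyme that breaks down retinoic acid, had the widest difference of the list, -1.73 (SE 0.43, unadjusted p 0.00334 in limma). It did not pass after adjustment, as no gene of the list did. Its groups overlapped, since minus lens replicate 1 at 5.66 lay above control replicate 1 at 5.55. WNT5A, a secreted signal, differed by -0.27. It was the 1 of 26 measured WNT genes without overlap at the probe set read for the list. Over all genes 0.799% were lower on all 6 lens arrays and 0.94% higher. The dimmer probe sets of WNT5A differed by 0.04 and -0.22. SFRP1, a secreted WNT antagonist read here at a probe set chosen after its values were seen, was higher at 0.34, and its brighter probe set differed by 0.01.

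Genes tied to lens wear by earlier work on chicks gave mixed values. GCG, the glucagon precursor of a class of amacrine cells, differed by -0.56 (SE 0.24), with -0.92 for the minus lens and -0.21 for the plus lens. Its dimmer tested probe set differed by -0.36. There the plus lens arrays, at 6.76 to 7.53, lay within the range of the controls, 6.67 to 7.55, and the minus lens arrays read 5.84 to 6.62. VIP differed by -0.67 (SE 0.34), the enkephalin precursor PENK by -0.09 (SE 0.08) and the growth factor BMP2 by 0.17 (SE 0.29). The clock gene PER2 differed by 0.00 (95% interval -0.39 to 0.38). CHAT, the enzyme of acetylcholine synthesis, differed by 0.13 with an interval of -2.19 to 2.45, since control replicate 1 and minus lens replicate 1 read 2.73 and 2.50 and the other arrays 5.28 to 6.71. All of these had overlapping groups, and TH, at 3.49 to 4.90, lay below the filter. No probe set carried the symbol SST in the annotation used. Of the 27 amacrine markers measured 23 were lower, with a median of -0.08 and 0 without overlap, where 1.74% of all genes were. The mean of these markers was -0.32 on minus lens replicate 3, -0.15 to -0.04 on the other lens arrays and -0.08 to 0.05 on the controls.

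**Figure D2:**
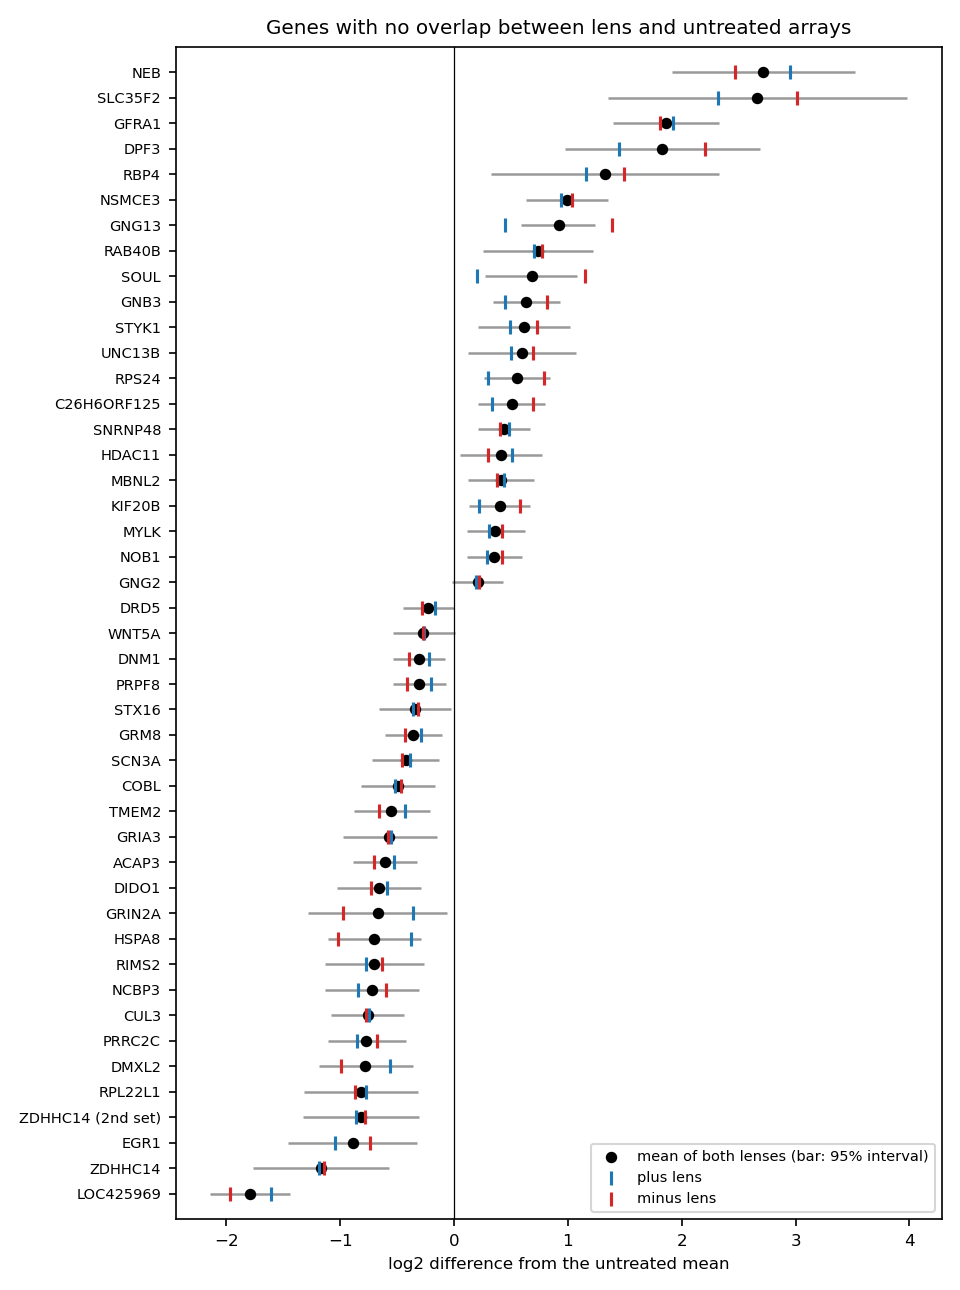
Log2 difference from the untreated mean (x axis) for the named probe sets without overlap (y axis), with black points for the mean of both lenses, bars for its 95% interval, and blue and red ticks for the plus and minus lens alone. LOC425969 at -1.79, GFRA1 at 1.86 and NSMCE3 at 0.99 have both ticks close together, whereas GNG13 and SOUL have the minus lens tick farther from 0.

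The minus and plus lens arrays were also compared with each other in the same fit. Of all probe sets tested, 2 passed (0.0154%), for ODF2L, a relative of a centrosome protein, and for the transcription factor gene KLF11, which falls outside the rule for naming genes. Neither was among the 221. ODF2L read 4.04 to 4.42 on the controls and the minus lens arrays and 6.19, 5.84 and 5.91 under the plus lens, so that its pooled difference of 0.95 (adjusted p 0.125) was carried by 1 lens. A probe set with 1 lens at the level of the controls cannot have all 6 lens arrays on one side of them, so the 221 leave out such genes by construction, and their values for minus against plus lens are given as a description without a test. GNG13 differed by 0.94 between the lenses and SOUL by 0.95, while GFRA1 differed by -0.10 (SE 0.24) and LOC425969 by -0.36 (SE 0.18, 95% interval -0.76 to 0.05). Over the 221 the minus lens mean lay farther from the controls in 143 (64.7%), close to the 61.5% of all probe sets tested. The lens array nearest to the controls was a plus lens array for most probe sets: plus lens replicate 1 came nearest for 30 of the 98 higher and 35 of the 123 lower, and minus lens replicate 3 for 7 and 12. Minus lens replicate 3 was the farthest array for 49 of the 123 lower and 24 of the 98 higher probe sets.

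**Figure D3:**
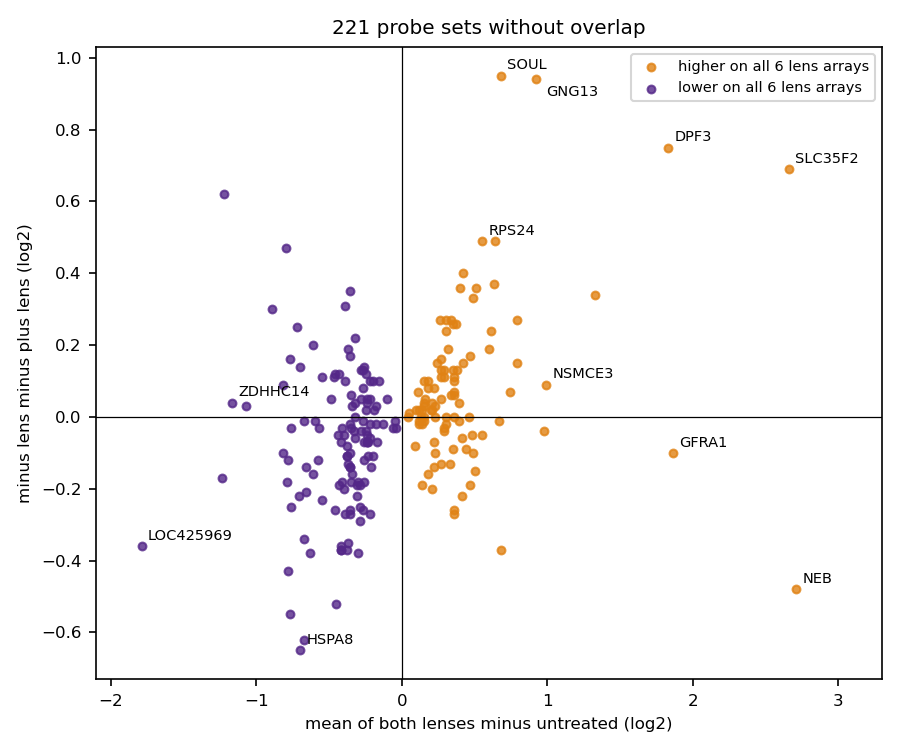
Mean of both lenses minus untreated (x axis, log2) against minus lens minus plus lens (y axis, log2) for the 221 probe sets without overlap, orange for higher and purple for lower. Most points lie close to 0 on the y axis; GNG13 at 0.94 and SOUL at 0.95 lie highest and HSPA8 at -0.65 lowest.

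Other probe sets of the same gene gave a second reading from the same RNA. Of the genes with a probe set without overlap, 83 had another tested probe set, in 138 pairs. The sign was the same in 100 pairs (72.5%). It was the same in 61% of 2151 genes when the 2 brightest probe sets of each gene are paired. The pairs come from probe sets selected on these same arrays for their separation, which the 2151 genes were not. The shares are therefore not alike, and nothing about the members is drawn from them. In 4 genes, ACAP3, MAGI1, SAMD4A and ZDHHC14, a second probe set was also without overlap in the same direction, and in 0 genes in the opposite one. Those of ZDHHC14 may not be separate readings, since their names differ only in the ending. Of all probe sets tested 1.7% were without overlap. MAGI1, a synaptic scaffold, read -0.30 and -0.22, and SAMD4A, a repressor of translation, read -0.25 and -0.24; both were named after their values were seen. Where the first difference was at least 0.5, 25 of 37 second readings had the same sign and 7 reached 0.5 in that direction.

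**Figure D4:**
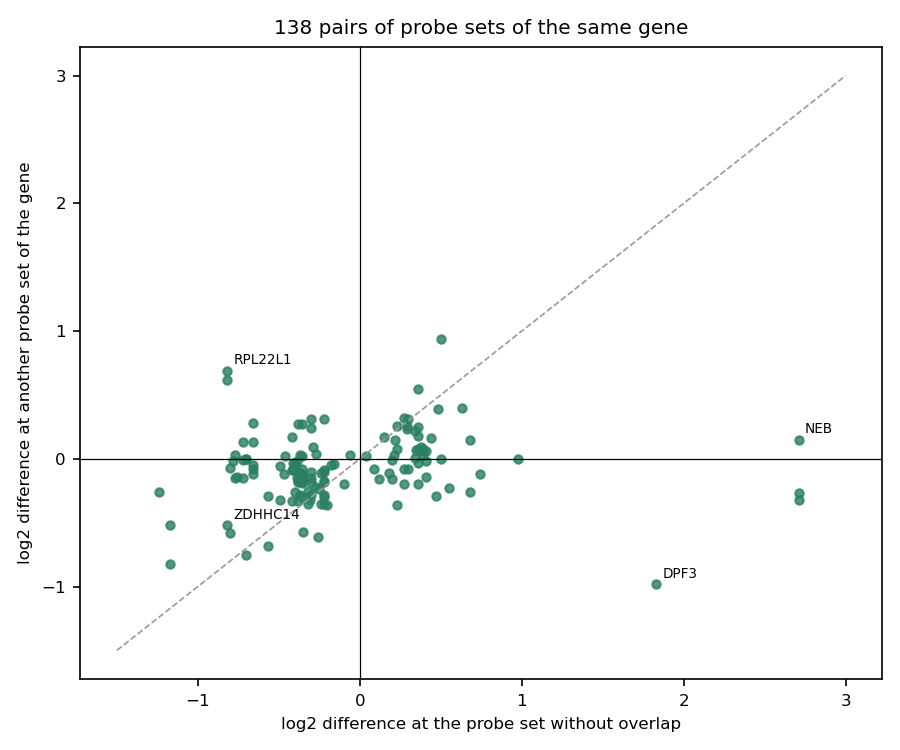
Log2 difference of lens against untreated at the probe set without overlap (x axis) and at another probe set of the gene (y axis), 1 point for each of 138 pairs, with a dashed line of equal values. NEB at 2.71 and DPF3 at 1.83 are far from the line, and the ZDHHC14 pairs lie in the lower left with both readings negative.

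The edge of the selection was crowded. Of the 221 probe sets 109 had a gap under 0.05 between the nearest lens and control arrays, down to 2.5e-05, and 652 others overlapped by less than 0.05. Gaps above 0.2 were found in 7 of the higher and 11 of the lower probe sets. The higher members had a median level of log2 6.69 and the lower ones of 7.52, against 6.87 over all tested, and 6 of the higher and 1 of the lower had a group mean below the filter's log2 4. Of the genes outside the rule for naming, chosen here after their values were seen, SEPTIN8, a cytoskeletal GTPase, differed by -1.24 with control replicate 3 at 9.40 and the other controls at 7.22 and 7.89. The motor protein gene MYO1C differed by -1.22 with lens arrays from 4.87 to 7.04. CTBP2, which also encodes the ribbon synapse protein RIBEYE, differed by 0.32 with controls of 9.67 to 9.72 and lens arrays of 9.78 to 10.20. CSF1R, the growth factor receptor of microglia, differed by 0.30, and by -0.08 at its brighter probe set.

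**Figure D5:**
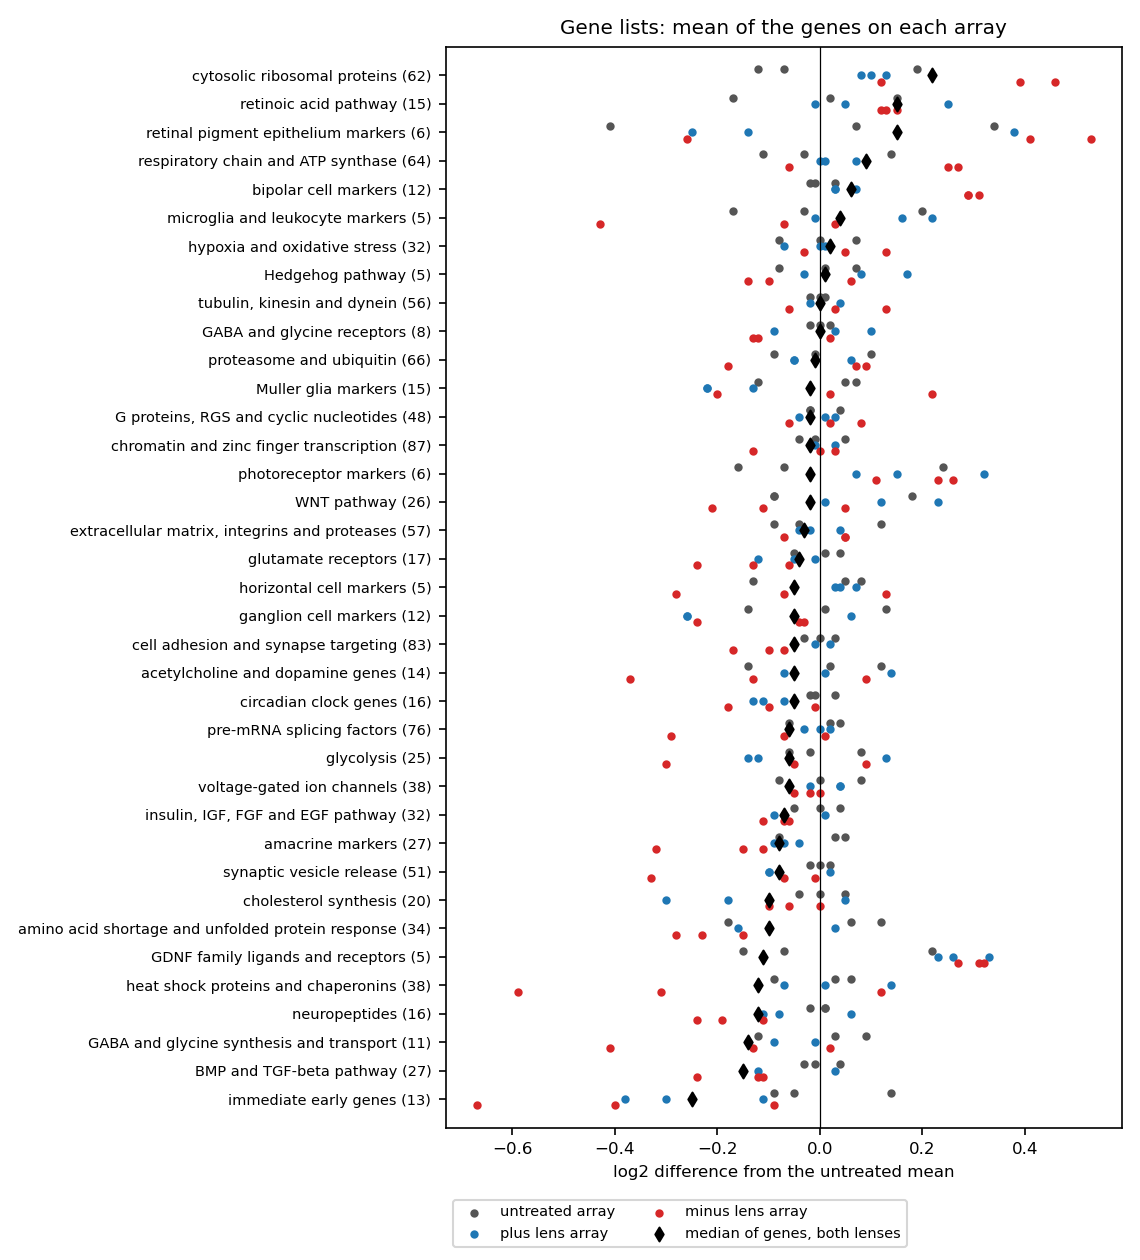
For each gene list with at least 5 measured genes (y axis, number of genes in brackets), the mean log2 difference of its genes from the untreated mean on each array (x axis; grey untreated, blue plus lens, red minus lens) and the median over genes of the pooled difference (black diamonds). Ribosomal proteins at 0.22 and immediate early genes at -0.25 have the medians farthest from 0, and arrays of different groups touch or overlap in both.

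With p adjusted over all 12975 probe sets, 0 list members passed in limma, where 1 of 7130 genes read at their brightest probe set did and 224 had an unadjusted p under 0.05. With limma fitted anew to the 7130 genes alone and p adjusted over them, 2 passed, LOC425969 and the list member GFRA1 (adjusted p 0.0253). In all, 124 of these genes (1.74%) were without overlap. Respiratory chain and ATP synthase genes had 46 of 64 higher (median 0.09), cell adhesion genes 54 of 83 lower (-0.05), amino acid shortage and unfolded protein genes 26 of 34 lower (-0.10), and cholesterol synthesis genes 15 of 20 lower (-0.10), with 0 members without overlap in any of these lists. The clock gene list had 7 of 16 higher and a median of -0.05.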

How the data were processed

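The authors deposited 1 linear intensity for each probe set and array, and the submitters' processing notes name GCRMA (no version is named in these sources), which corrects background by probe composition, normalises arrays to one distribution and compresses dim signals. Log2 was taken with no pseudocount. Of 38535 probe sets, 37693 were chicken and 12975 (34.4%) passed the filter; 9978 of these had 1 symbol in the platform annotation. The tests used limma 3.58.1 under R 4.3.3, with 3 groups of 3 arrays in 1 fit, an intensity trend, 6 residual and 2.64 prior degrees of freedom, two-sided, with Benjamini-Hochberg adjustment over all probe sets tested. For lists, each gene was read from its brightest probe set.

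The members, lists and tests were chosen with earlier results of these data known. Genes named were those past the threshold; 15 in each direction by p and 8 by gap among probe sets without overlap; up to 4 list members without overlap in each list; and 14 genes given whatever their values, EGR1, FOS, GCG, VIP, PENK, SST, TH, CHAT, BMP2, PER2, LOC425969, GFRA1, ODF2L and NSMCE3. Other genes named are marked or belong to a list.

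On simulated data with 200 of 12975 probe sets changed, 65.6% were recovered at log2 1, 92.8% at log2 2 and 0% at log2 0.5. The mean share of false calls was 5.89%, 6.19% and 20% in the same order. The simulation gave both lenses equal changes, with independent normal noise and no outlying array. Its shares therefore check the code and do not give the power in the deposited data. The number of arrays limits the precision (median SE 0.16). Deviations of arrays with the same replicate number correlated at -0.06 to 0.16, over 0.1 in 2 of 9 pairs. Those of arrays with different numbers correlated at -0.15 to 0.14. With so few arrays in each group and overlapping ranges, these correlations cannot decide whether replicate numbers pair samples. No arrays held identical values.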

Additional observations from a re-analysis of the deposited data

Results flagged for a closer look

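ODF2L is listed because its response differed between the lenses: minus lens minus plus lens was -1.76 on the log2 scale (adjusted p 0.0114 in limma), so its pooled value describes neither lens. For 9 of 52 probe sets looked at, 1 lens array lay far from the other 5 by Dixon's criterion at the 95% level, which chance meets in about 1 of 20 groups. Minus lens replicate 3 was the distant array for MYLK (high at 9.14), for GRIN2A (low at 6.33) and for DRD5 (low at 8.99). Minus lens replicate 1 was distant for PRRC2C (high at 5.08), STYK1 (high at 4.62), SCN3A (low at 4.35) and CHAT (low at 2.50). Plus lens replicate 3 was distant for MBNL2 (high at 4.93) and plus lens replicate 2 for PER2 (low at 5.80).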

How the results depend on the processing

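The 3 counts moved most with the arrays left in. The members themselves also moved with normalisation. Of the 221 probe sets without overlap, 158 remained so after quantile normalisation and 144 after median centring. The higher and lower ones then numbered 127 and 118 after quantile normalisation, and 97 and 122 after median centring. Similar counts thus held partly different probe sets. The number of probe sets past the threshold was 1; it was 0 with no filter and 0 when log2 4 was asked of all 9 arrays, which removes LOC425969, and 2 after quantile normalisation, after median centring, with 2 groups in the fit, with arrayWeights and, in an alternative added after seeing the data, with 1 probe set a gene. Leaving out 1 array gave 0 to 5 probe sets. Those higher on all lens arrays numbered 64 with the filter at log2 6 and 125 to 348 with 1 array left out, and those lower 155 to 466; fewer arrays make separation easier by construction. With the replicate number as a block the count stayed at 1 and the adjusted p of GFRA1 was 0.232. Of 1002 values for 52 named probe sets, 973 kept their direction and side of the threshold. PER2, at 0.00, turned to 0.02 after quantile normalisation, 0.01 after median centring, 0.05 with arrayWeights, 0.03 without control replicate 1, 0.05 without control replicate 2, 0.10 without plus lens replicate 2 and 0.03 without minus lens replicate 1. CHAT turned to -0.01 with a pseudocount of 16, -1.16 without control replicate 1, and -0.28 and -0.02 without minus lens replicate 2 or 3. BMP2 turned to -0.12 without control replicate 3. With 1 array left out PER2 ran from -0.09 to 0.10, CHAT from -1.16 to 0.83 and BMP2 from -0.12 to 0.42. Of 800 list values 779 stayed within the replicate spread. The causes were not tested. Dim probe sets limit what can be read: differences near log2 4 are compressed.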
